A study of Mus musculus with 22 samples.

Results

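Hippocampal cells of old rTg4510 mice were compared with those of old mice labelled rTta. The comparison used 9748 cells of 7 animals, out of 27198 cells kept from the 22 animals of the series. Cells entered by the genotype and age of their animal: 4 rTg4510 animals of 38, 37, 35 and 32 weeks, numbered 1 to 4 in that order, gave 1296, 1596, 1599 and 1097 cells, and 3 rTta animals, all of 33 weeks, gave 1454, 1232 and 1474. A cell was a Drop-seq barcode with at least 300 counts, and 12614 genes counted in both groups were used. All animals were of the mixed Fvb/B6 strain. Mice of the rTg4510 line carry a tetracycline-responsive human tau cDNA with the P301L mutation, placed in a prion protein gene vector, and a tetracycline transactivator under the Camk2a promoter, which acts in forebrain excitatory neurons. By its name, rTta carries the transactivator without the tau gene, so both groups share the driver; the labels do not spell the genotype out. Old WT animals (n = 5, 32 to 40 weeks) and old animals labelled P301L (n = 3, 41 to 48 weeks) are given beside the results. The labels do not say how or when each animal was processed, so p-values measure only the spread between these samples, part of which may be technical.

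Tau is a microtubule-binding protein of axons, and the P301L mutation makes it aggregate in inherited frontotemporal dementia. Tau aggregation in forebrain neurons is followed in this line by synapse and neuron loss and by activation of microglia and astrocytes. Microglia that meet damaged neurons or lipid debris are known to lower homeostatic genes such as P2ry12 and to raise a lipid-handling and lysosomal programme led by Apoe, Lpl and Axl. Astrocytes supply neurons with cholesterol, which they make through enzymes controlled by sterol-sensing transcription factors.

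The count table joins 2 parts, and this bears on each comparison below. The 3 rTta and 3 P301L animals have 801 genes that are at 0 in the other 16 animals, and 270 genes show the reverse. The 4 rTg4510 animals lie with WT in the other part, so genotype and table part cannot be told apart between rTg4510 and rTta; the WT and P301L values, which cross the parts, are therefore printed beside most named genes. Total counts were 1972145 to 6039656 in the rTg4510 animals and 1487428 to 1954122 in the rTta animals, with 833 to 2021 and 722.5 to 814.5 median counts per cell. At most 1 barcode sequence was shared by any of the 21 pairs of these animals. Of the 20 clusters found over all cells, 14 were named from marker genes, which left 2274 of the 9748 cells unnamed. In the third rTg4510 animal 34.0% of the cells were choroid plexus-like (544 cells in all, against 3 in the rTta animals), and this class was not tested.

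Levels are given as CPM, the share of a gene in the summed counts of one animal or of one of its cell classes. Changes are log2 differences of rTg4510 minus rTta with their standard error, from edgeR's quasi-likelihood test, and a gene is called at a Benjamini-Hochberg adjusted p under 0.05. The genes of greatest rise and fall were picked among called genes whose groups do not overlap, so their lack of overlap adds no support. Groups did not overlap in 104 of 109 called genes in astrocytes and 96 of 96 in microglia. The share of all genes tested without overlap was not counted. Excitatory neuron-like cells were the clusters led by Arpp21, Tshz2 and Slc17a6, by Pde1a, Crym and Neurod6, and by C1ql3, Fam163b and Calb1; the last of these, which carries the dentate granule cell markers C1ql2 and C1ql3, held 42.3% of them in rTg4510 and 61.0% in rTta.

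The genes that read out the transgene were higher in neurons of rTg4510. In excitatory neurons Mapt, the tau gene, was counted at 2209, 1614, 1394 and 1636 CPM in the 4 rTg4510 animals and at 638, 596 and 479.9 CPM in the 3 rTta animals. No rTg4510 animal came near the rTta range. The log2 change was 1.60 ± 0.19 (SE) with an adjusted p of 2.15e-06, and old WT and P301L neurons averaged 515 and 519 CPM. In the cluster led by Arpp21 alone the log2 change of Mapt was 0.885 and not called (adjusted p = 0.0772); the mix of clusters differed between the groups, as given above. Prnp, the prion protein gene whose sequences flank the tau cDNA in the vector, was counted at 3301, 3227, 3352 and 2883 CPM against 1223, 1276 and 1527 CPM. Here too the groups did not overlap, the log2 change was 1.27 ± 0.22 (SE) (adjusted p = 0.00165), and WT and P301L averaged 1435 and 1196 CPM. Against old WT, in the same table part, the log2 changes in excitatory neurons were 1.73 ± 0.16 (SE) for Mapt (adjusted p = 1.68e-08) and 1.15 ± 0.19 (SE) for Prnp (adjusted p = 0.00157). The rise of Prnp against rTta was not confined to neurons. Its log2 change was positive in all 8 classes, and Prnp was also called in microglia. There every rTg4510 and WT animal lay above every rTta and P301L animal, a split that follows the table parts. Mapt was positive in 7 of 8 classes.

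Interneurons, in which the Camk2a promoter is largely silent, showed the same pair of genes higher. Mapt was counted at 1579, 1486, 1577 and 1696 CPM in rTg4510 interneurons and 801, 715 and 459.7 CPM in rTta interneurons (log2 change 1.29 ± 0.27 (SE), adjusted p = 0.0223). Prnp was counted at 1534, 2112, 2527 and 2031 against 767, 687 and 601 CPM (log2 change 1.65 ± 0.30 (SE), adjusted p = 0.00398). In both genes every rTg4510 animal was above every rTta animal. Old WT interneurons averaged 626 CPM of Mapt and 657 CPM of Prnp. Interneurons were few, with 25 to 36 cells in each rTta animal, and the 10 excitatory markers measured summed to 298 to 835 CPM in rTg4510 interneurons and 305 to 955 in rTta; the part of free RNA from other neurons in these values was not tested. Mapt did not pass without rTg4510 animal 1, 3 or 4 (adjusted p = 0.0502, 0.0528 and 0.0967) or rTta animal 2 or 3 (adjusted p = 0.143 and 0.262). Mapt also missed the threshold with only the rTg4510 animals of 32 and 35 weeks (adjusted p = 0.0989). Prnp did not pass without rTta animal 3 (adjusted p = 0.0831). In the sum of all cells neither gene was called: Mapt changed by 0.82 ± 0.25 (SE) (adjusted p = 0.239) and Prnp by 0.83 ± 0.24 (SE) (adjusted p = 0.207), on the log2 scale. The third rTg4510 animal, with its choroid plexus-like cells, was the lowest of its group in both. Without choroid plexus-like cells both passed, Mapt at a log2 change of 0.98 (adjusted p = 0.009) and Prnp at 1.01 (adjusted p = 0.0364). Without that animal Mapt passed at 1.03 (adjusted p = 0.049), and in DESeq2 Prnp passed at 0.84 (adjusted p = 0.0295).

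**Figure D1:**
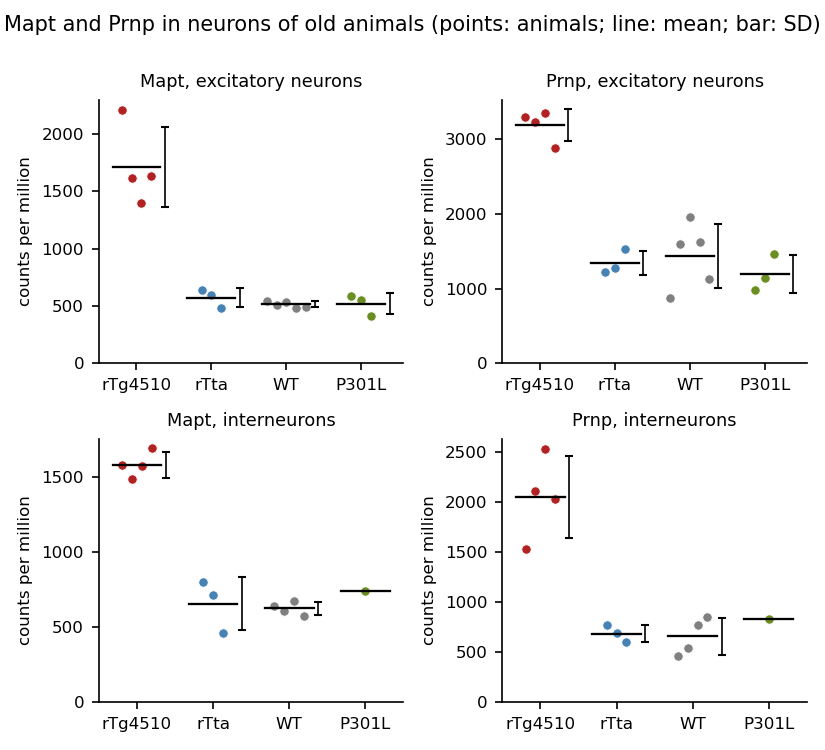
CPM of Mapt and Prnp (vertical axes) in excitatory neurons and interneurons of each old animal, by genotype (horizontal axes); points are animals, lines are means and bars are SD, with 1 P301L animal in the interneuron panels. The rTg4510 points lie above all other points in each panel.

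The transgenes of this line are known to have disrupted the genes at their insertion sites, and those genes gave no called change. Ptprn2, Wdr60, Esyt2 and Ncapg2 lie at the site of the transactivator, which both groups carry, and Fgf14 lies at the site of the tau gene. Of these 4 transactivator-site genes 0 were called in the sum of all cells (2 higher and 0 lower at an unadjusted p under 0.05, and 0 in DESeq2). Fgf14, a fibroblast growth factor homologue that tunes sodium channels, was counted at 27.6, 29.7, 22.7 and 17.6 CPM in rTg4510 excitatory neurons and 52.7, 49.8 and 47.2 CPM in rTta. The groups did not overlap, but the log2 change of -1.02 ± 0.29 (SE) did not pass the test (adjusted p = 0.132), and WT and P301L averaged 40 and 41.2 CPM. Wdr60 was counted at 68.6 ± 19.4 (SD, n = 4) CPM in rTg4510, 40.7 ± 5.23 (SD, n = 3) in rTta, 136 ± 36.1 (SD, n = 5) in WT and 103 ± 44.2 (SD, n = 3) in P301L excitatory neurons. The means of rTg4510 and rTta were below those of WT and P301L, with overlap between single rTg4510, WT and P301L animals, and the change between rTg4510 and rTta was 0.76 ± 0.29 (SE) (adjusted p = 0.318).

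Over the 8 cell classes tested, 340 changes were called among 39954 pairs of gene and class, 158 higher and 182 lower in rTg4510, in 280 different genes. Astrocytes had 48 genes higher and 61 lower of 4529 tested (2.41% called). Microglia had 39 higher and 57 lower of 4570 (2.1%). Excitatory neurons had 31 higher and 24 lower of 9044 (0.608%), and oligodendrocytes 28 higher (0.448%) and 27 lower (0.432%) of 6248, 0.88% in all. Interneurons had 6 higher (0.0988%) and 5 lower (0.0824%) of 6071, 0.181% in all. Oligodendrocyte precursors had 4 higher (0.106%) and 3 lower (0.0795%) of 3772, 0.186% in all. Endothelial cells had 1 higher (0.0256%) and 5 lower (0.128%) of 3910, 0.153% in all. Mural cells had 1 higher (0.0552%) and 0 lower of 1810 in edgeR, with 105 genes in either direction at an unadjusted p under 0.05. In the sum of all cells 18 genes were higher (0.145%) and 25 lower (0.201%) of 12414, 0.346% in all. DESeq2 gave 62 higher and 49 lower in that sum, and 6 higher and 7 lower in interneurons. These counts depend on single animals, as given in the closing section. At an unadjusted p under 0.05 in either direction there were 674 genes in astrocytes, 677 in microglia, 910 in excitatory neurons and 654 in oligodendrocytes. Interneurons had 481, precursors 193, endothelial cells 268 and the sum of all cells 1407.

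The called genes fall into different patterns once the other old animals are set beside them. In microglia, 11 of the 39 higher genes were above every other old animal in all 4 rTg4510 animals, and 14 of the 57 lower genes were below every other old animal. Of all microglial genes tested, 1.42% set the rTg4510 animals apart from every other old animal in either direction, and 1.49% so set the rTta animals apart, 25 of them called. In the sum of all cells the picture was different: Arc alone set rTg4510 apart among the 43 called genes (0.379% of all genes tested), while 30 called genes set rTta apart from every other old animal, 16 higher and 14 lower in rTta (1.4% of all genes tested). In astrocytes 9 called genes set rTg4510 apart and 22 set rTta apart, against 0.353% and 1.26% of all genes tested. In oligodendrocytes these counts were 3 and 34, against 0.224% and 1.81%, and in excitatory neurons 5 and 27, against 0.287% and 1.15%. Other called genes split by table part, with all rTg4510 and WT animals on the same side of all rTta and P301L animals. There were 12 in microglia, Olfml3, Crybb1 and P2ry12 among them, and 3 in all cells. Astrocytes and oligodendrocytes had 2 each and excitatory neurons 3. A gene can show more than 1 pattern, and the share of all genes tested with this split was not counted. Called genes were selected for a difference between rTg4510 and rTta, which by itself makes these patterns more frequent among them. The shares of all genes tested are therefore not a like background for the called genes.

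Microglia of rTg4510 carried more of the lipid-handling genes. Apoe, the main lipid carrier of the brain, was counted at 52064, 28560.0, 38224 and 26085 CPM in rTg4510 microglia and 3702, 2881 and 3350.5 CPM in rTta microglia. WT averaged 5474 ± 2745 (SD, n = 5) and P301L 5372 ± 2065 (SD, n = 3) CPM. The lowest rTg4510 animal was above every other old animal, and the log2 change was 3.54 ± 0.49 (SE) (adjusted p = 7.08e-06). Lpl, lipoprotein lipase, was counted at 338, 377, 389 and 373 CPM against 18.4, 76.8 and 0 CPM, with WT at 39.6 ± 14.9 (SD, n = 5) and P301L at 1.82 ± 3.15 (SD, n = 3). The change of Lpl was 3.53 ± 0.48 (SE) on the log2 scale (adjusted p = 4.55e-06). Axl, a receptor tyrosine kinase for apoptotic cells, was counted at 212, 179, 158 and 124 CPM against 6.14, 6.40 and 15.5 CPM (log2 change 4.23 ± 0.60 (SE), adjusted p = 8.72e-06). Its WT and P301L means were 23.4 and 10.7 CPM.

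Further microglial genes rose with these. Cd63, a tetraspanin of late endosomes, was counted at 1471, 1071, 1119 and 721 CPM in rTg4510 and 300.8, 378 and 503 CPM in rTta, a log2 change of 1.57 ± 0.35 (SE) (adjusted p = 0.00704). Cd63 averaged 213 CPM in WT and 407 in P301L. Cd63 did not pass without rTta animal 1 or 2 (adjusted p = 0.0954 and 0.0697). Cd63 also missed the threshold with only the rTg4510 animals of 32 and 35 weeks (adjusted p = 0.0896) or in the P2ry12 cluster alone (0.0683). Lgals3, galectin-3, had 130 counts in the 4 rTg4510 animals together and 2 in the 3 rTta animals. The ratio was 19.0, with a 95% interval from 5.16 to 159 that covers counting error only, and Lgals3 averaged 5.36 CPM in WT and 3.64 in P301L. Lgals3 did not pass without rTta animal 2 or 3 (adjusted p = 0.106 and 0.0666). Fam20c, a secretory pathway kinase, had 134 counts against 3, a ratio of 13.1 with an interval from 4.38 to 64.2. Fam20c averaged 6.45 CPM in WT and 4.80 in P301L. Apold1, an apolipoprotein L domain protein, had 196 counts against 2 (ratio 28.7, interval 7.84 to 239); its WT and P301L means of 42.1 and 61.3 CPM lay between the group means of 125 ± 32.2 (SD, n = 4) and 4.63 ± 4.08 (SD, n = 3).

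Of the 28 genes of the disease-associated microglia list, 22 were tested in microglia and 6 were higher: Cd63, Ank, Lpl, Apoe, Lgals3 and Axl. Of all microglial genes tested, 0.853% were higher. All 22 had a positive log2 change, with a median of 0.84 beside 0.01 over all genes tested. Against old WT, in the same table part, 16 of the 22 were higher, with a median of 1.55, against 1.64% of all genes tested. Ctsb, Cd52, Npc2, Ctsz, Cd9, Cd68, B2m, Ctsd, Timp2, Tyrobp and Ctsl were called there but not against rTta; the 2 comparisons share the rTg4510 animals and the difference between them was not tested. Old P301L against old rTta, within the other part, gave 0 of 22 called in edgeR in either direction (1 higher and 2 lower at an unadjusted p under 0.05) and a median of 0.06 (0.131% of all genes higher and 0.197% lower). The count of 6 was 4 without the second rTta animal and 4 with only the rTg4510 animals of 32 and 35 weeks. In the microglial cluster led by Ccl4, Ccl3 and Il1b it was 9 of 21, and in the cluster led by P2ry12, Selplg and Cx3cr1 it was 2 of 19.

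**Figure D2:**
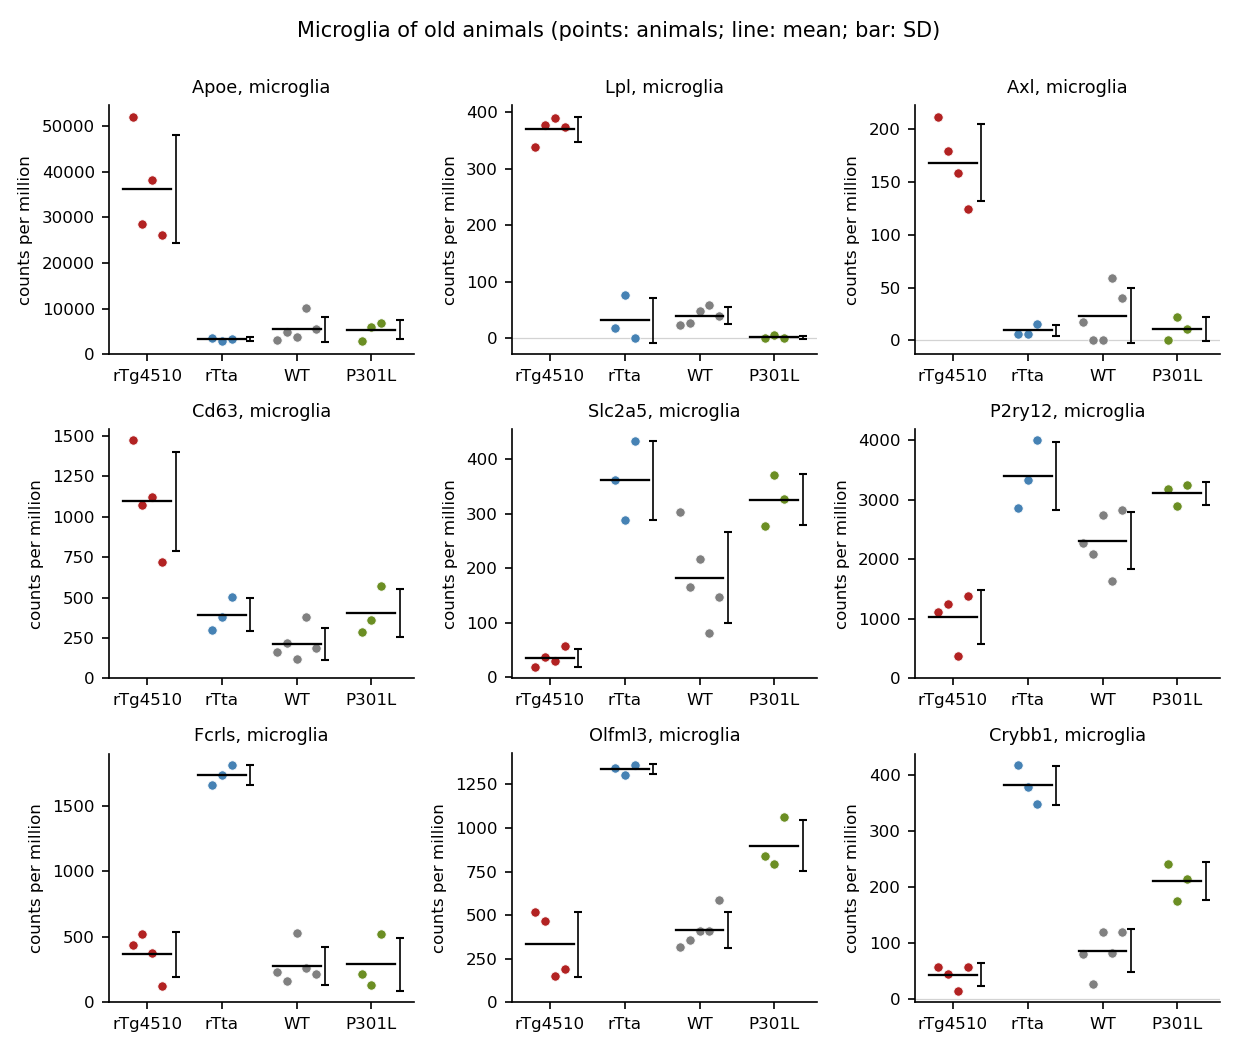
CPM of 9 genes (vertical axes) in the microglia of each old animal, by genotype (horizontal axes); points are animals, lines are means and bars are SD. Apoe, Lpl, Axl and Cd63 are highest in rTg4510 and Slc2a5 and P2ry12 lowest, whereas Fcrls, Olfml3 and Crybb1 are highest in rTta.

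Homeostatic microglial genes were lower in rTg4510, in 2 different ways. Slc2a5, the fructose transporter of microglia, was counted at 18.3, 36.1, 28.8 and 57.1 CPM in rTg4510 and 362, 288 and 433 CPM in rTta, with WT at 183 ± 82.8 (SD, n = 5) and P301L at 325 ± 47 (SD, n = 3). Every rTg4510 animal was below every other old animal, and the log2 change was -3.31 ± 0.39 (SE) (adjusted p = 3.52e-07). Txnip, an inhibitor of thioredoxin, was counted at 186, 152, 91.2 and 166 CPM against 460.5, 666 and 650.0 CPM (log2 change -1.88 ± 0.35 (SE), adjusted p = 0.000972). Txnip averaged 300.1 CPM in WT and 459 in P301L. P2ry12, the purinergic receptor that guides microglial processes, is named here after its values were seen: 1112, 1246, 379 and 1385 CPM against 2867, 3329.6 and 4000.5 CPM, a log2 change of -1.62 ± 0.37 (SE) (adjusted p = 0.01). Txnip and P2ry12 were also lowest in rTg4510 among all old animals. In P2ry12, however, every WT animal also lay below every rTta and P301L animal, a split that follows the table parts. P2ry12 averaged 2316 CPM in WT and 3109 in P301L. P2ry12 did not pass without rTta animal 2 or 3 (adjusted p = 0.0577 and 0.104).

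In other genes it was rTta that stood out. Fcrls, an Fc receptor-like protein of microglia, was counted at 439.6, 524, 379 and 124 CPM in rTg4510 and 1658, 1735 and 1811 CPM in rTta, but at 279 ± 143 (SD, n = 5) in WT and 291 ± 204 (SD, n = 3) in P301L. The rTta animals were above every other old animal, and the log2 change was -2.13 ± 0.44 (SE) (adjusted p = 0.00494). Olfml3, an olfactomedin-like secreted protein, was counted at 521, 467, 154 and 192 CPM against 1344, 1306 and 1362 CPM, with WT at 417 ± 103 (SD, n = 5) and P301L at 899 ± 145 (SD, n = 3). Its WT mean lay by the rTg4510 mean and its P301L mean between the groups (log2 change -1.87 ± 0.39 (SE), adjusted p = 0.00455). Crybb1, a crystallin expressed in microglia, followed the same order, with 57.6, 45.5, 14.4 and 57.1 CPM in rTg4510, 417, 378 and 348 CPM in rTta, and means of 86 in WT and 210.4 in P301L (log2 change -2.98 ± 0.38 (SE), adjusted p = 1.27e-06). Of the 20 genes of the homeostatic list, all tested, 5 were lower: Slc2a5, Fcrls, Txnip, Olfml3 and P2ry12. Of all microglial genes 1.25% were lower, and 19 of the 20 had a negative log2 change with a median of -0.95. Against old WT 1 of the 20, Slc2a5, was lower, with a median of -0.30 (0.46% of all genes lower), and old P301L against old rTta gave 1, Fcrls, lower with a list median of 0.21 (0.197% of all genes lower).

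Antigen presentation genes rose in part. H2-D1, a major histocompatibility class I gene, was counted at 4582, 5031, 2041 and 1566 CPM in rTg4510 microglia and 694, 595 and 1145 CPM in rTta microglia (log2 change 2.13 ± 0.45 (SE), adjusted p = 0.00535). H2-K1, another class I gene, was counted at 2107, 2487, 1176 and 1068 against 712, 711 and 789 CPM (log2 change 1.31 ± 0.36 (SE), adjusted p = 0.043). Both were higher in each rTg4510 animal than in each rTta animal, with WT at 836 and 594 CPM. Reads can be shared between these similar genes, which makes each single value uncertain. H2-D1 did not pass without rTta animal 1 or 2 (adjusted p = 0.0586 and 0.0759). H2-D1 also missed the threshold with only the rTg4510 animals of 32 and 35 weeks (adjusted p = 0.216). H2-K1 did not pass without rTg4510 animal 1 or 2 (adjusted p = 0.0925 and 0.145) or rTta animal 1, 2 or 3 (adjusted p = 0.214, 0.212 and 0.15). H2-K1 also missed the threshold with only the rTg4510 animals of 32 and 35 weeks (adjusted p = 0.483). They were 2 of 8 tested members of the class I list, against 0.853% of all microglial genes higher; against old WT 4 of the 8 were higher (1.64% of all genes). Of the class II genes 0 of 3 were called (0 higher and 1 lower at an unadjusted p under 0.05, and 0 in DESeq2): Cd74, the invariant chain, was counted at 398, 1114, 278 and 290.5 CPM against 239, 269 and 789 CPM, with overlapping groups. Of the complement list 0 of 8 were called in microglia (0 higher and 2 lower at an unadjusted p under 0.05, and 0 in DESeq2), with a median of -0.55. Against old WT 7 of the 8 were positive, with a median of 0.95, 5 higher at an unadjusted p under 0.05 and 1, C3ar1, called, and the class II list had a median of 2.03 with H2-DMa called. C1qb was counted at 4264 ± 1242 (SD, n = 4) CPM in rTg4510 and 6414 ± 1083 (SD, n = 3) in rTta.

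The lysosomal and interferon lists gave 1 call each in microglia. Of 25 lysosomal genes 1 was higher, Cd63, and the median log2 change was 0.38 (0.853% of all genes higher). Against old WT 11 of the 25 were higher, with a median of 1.03 (1.64% of all genes higher). Of 4 interferon response genes 1 was higher: Lgals3bp, a secreted galectin-binding protein, at 285, 148, 86.4 and 187 CPM against 61.4, 70.4 and 77.4 CPM (log2 change 1.46 ± 0.40 (SE), adjusted p = 0.043). Lgals3bp averaged 47.4 CPM in WT and 91.4 in P301L. Lgals3bp did not pass without rTg4510 animal 1, 2 or 4 (adjusted p = 0.178, 0.0534 and 0.0557) or rTta animal 1, 2 or 3 (adjusted p = 0.239, 0.184 and 0.13). Lgals3bp also missed the threshold in DESeq2 (adjusted p = 0.071) or with only the rTg4510 animals of 32 and 35 weeks (0.326). Of 9 cytokine and immediate response genes 0 were called (1 higher and 0 lower at an unadjusted p under 0.05, and 0 in DESeq2); Ccl4, a chemokine, was counted at 2496 ± 435 (SD, n = 4) CPM in rTg4510 and 2492 ± 507 (SD, n = 3) in rTta. Of 13 heat shock chaperones 0 were called in microglia (0 higher and 3 lower at an unadjusted p under 0.05, and 0 in DESeq2). Markers of other cells differed in places: 2 of 10 tested astrocyte markers, Gja1 and Clu, were higher in rTg4510 microglia, and the summed level of the 11 measured was 2220 to 8460 CPM in rTg4510, 1660 to 2290 in rTta, 2640 to 6640 in WT and 1100 to 2770 in P301L. The 7 general neuron markers summed to 1380 to 8530 CPM in rTg4510 microglia, 1180 to 1450 in rTta, 2180 to 7980 in WT and 464 to 841 in P301L. Mrc1, the macrophage marker measured, was counted at 1.34 to 65.4 CPM in rTg4510 and 77.4 to 128 in rTta. The part of astrocyte or neuron RNA or of macrophages in these results was not tested.

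Astrocytes of rTg4510 carried more of the reactive genes. Serpina3n, a secreted protease inhibitor, was counted at 886, 303, 1072 and 399.8 CPM in rTg4510 astrocytes and 6.41, 15.9 and 50.5 CPM in rTta astrocytes. The groups did not overlap and the log2 change was 4.76 ± 0.79 (SE) (adjusted p = 0.00271). WT averaged 149 ± 62.1 (SD, n = 5) CPM and P301L 336 ± 341 (SD, n = 3), so that the rTta animals were below every other old animal. H2-D1 was counted at 506, 534, 423 and 226 CPM against 83.3, 55.7 and 107 CPM, with WT at 166 and P301L at 157 (log2 change 2.39 ± 0.37 (SE), adjusted p = 5.42e-05). Chi3l1, a chitinase-like glycoprotein released by reactive astrocytes, was counted at 581, 284, 679.5 and 135 CPM against 25.6, 39.8 and 101 CPM (log2 change 2.94 ± 0.55 (SE), adjusted p = 0.00363). Chi3l1 averaged 122 CPM in WT and 137 in P301L. Chi3l1 did not pass without rTta animal 1 (adjusted p = 0.0583). Chi3l1 also missed the threshold with only the 7 animals fitted (adjusted p = 0.0636). S1pr3, a sphingosine phosphate receptor, had 124 counts in the 4 rTg4510 animals and 1 in the 3 rTta animals, a ratio of 42.0 with a counting interval from 7.41 to 1670. S1pr3 did not pass without rTta animal 1, 2 or 3 (adjusted p = 0.219, 0.17 and 0.148). S1pr3 also missed the threshold with only the 7 animals fitted (adjusted p = 0.0551). P301L animals averaged 63.4 CPM of S1pr3 and WT 5.62.

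Of the 18 genes of the reactive astrocyte list 7 were tested and 3 were higher, H2-D1, Serpina3n and S1pr3, against 1.06% of all astrocyte genes. All 7 had a positive log2 change, with a median of 2.57 beside 0.01. Against old WT 3 of the 7 were higher, H2-D1, S1pr3 and Gfap, with a median of 2.26 (0.397% of all genes higher). Old P301L against old rTta gave 0 called in edgeR, 3 higher at an unadjusted p under 0.05, 7 of 7 positive and a median of 1.49 (0.132% of all genes higher). Gfap, the astrocyte filament protein, named after its values were seen, was counted at 3189, 1910.4, 3896 and 1437 CPM against 397, 501 and 474 CPM and did not pass against rTta (log2 change 2.57 ± 0.67 (SE), adjusted p = 0.0524). Gfap passed in DESeq2 (adjusted p = 0.00301), with only the 7 animals fitted (8.99e-06) and without rTg4510 animal 4 (0.0426). The rTg4510 and rTta animals did not overlap, but 1 P301L animal reached 3995 CPM. The count of 3 higher genes was 2 without rTg4510 animal 1 or 3 or without any single rTta animal. Ifitm3, an interferon-induced membrane protein, was counted at 267, 183, 239 and 174 CPM against 6.41, 7.95 and 75.8 CPM (log2 change 2.81 ± 0.57 (SE), adjusted p = 0.0059). Ifitm3 averaged 59.6 CPM in WT and 119 in P301L. Ifitm3 did not pass without rTta animal 1 or 2 (adjusted p = 0.0686 and 0.0575). Kcnj10, the potassium channel of astrocyte endfeet, was higher, at 1066, 1014, 758 and 958 CPM against 346, 374 and 234 CPM (log2 change 1.63 ± 0.31 (SE), adjusted p = 0.000906). Kcnj10 averaged 486 CPM in WT and 651 in P301L. Mfge8, a secreted bridge for apoptotic cells that also served to name the class, was lower, at 857, 915, 504 and 982 CPM against 2043, 2473 and 2356 CPM (log2 change -1.44 ± 0.28 (SE), adjusted p = 0.00189). All 4 rTg4510 animals were below every other old animal in Mfge8, and WT averaged 1801 and P301L 2359 CPM. Of the 16 tested astrocyte homeostasis genes these were the 2 called, against 1.06% of all astrocyte genes higher and 1.35% lower.

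Some calls in astrocytes were of microglial genes. C1qa and C1qb, subunits of complement C1q, were counted at 155, 44.2, 169 and 55.4 and 134, 50.5, 211 and 67.3 CPM in rTg4510 astrocytes. In rTta astrocytes they were counted at 12.8, 7.95 and 37.9 and 19.2, 15.9 and 37.9 CPM. The lysosomal protease Ctss was higher as well (log2 change 1.78 ± 0.49 (SE), adjusted p = 0.044). Ctss averaged 59.9 CPM in WT and 42.1 in P301L. Ctss did not pass without rTg4510 animal 1 or 3 (adjusted p = 0.0643 and 0.156) or rTta animal 1 or 2 (adjusted p = 0.255 and 0.186). Ctss also missed the threshold with a minimum of 500 counts per cell (adjusted p = 0.0723). C1qa averaged 40.2 CPM in WT and 26.4 in P301L. C1qa did not pass without rTg4510 animal 1 or 3 (adjusted p = 0.0757 and 0.161) or rTta animal 1 or 2 (adjusted p = 0.188 and 0.163). C1qb averaged 41.2 CPM in WT and 18.3 in P301L. C1qb did not pass without rTg4510 animal 3 (adjusted p = 0.203) or rTta animal 1 or 2 (adjusted p = 0.163 and 0.126). These 3 are microglial markers: the summed level of the 10 microglial markers measured was 436 to 1390 CPM in rTg4510 astrocytes, 207 to 530 in rTta, 244 to 582 in WT and 250 to 326 in P301L, and 0 of the 10 were at 0 in all 7 animals. In microglia the same sum was 23000 to 47200 CPM in rTg4510. The part of free microglial RNA or of mixed cells in these calls was not tested.

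Cholesterol synthesis genes were lower in rTg4510 astrocytes than in rTta astrocytes. Of the 19 genes of the list 16 were tested, 11 were lower and 0 higher, against 1.35% of all astrocyte genes lower. All 16 had a negative log2 change, with a median of -1.36. Insig1, which holds the sterol sensor in the endoplasmic reticulum, was counted at 91.9, 35.8, 27.2 and 59.4 CPM against 269, 278 and 335 CPM (log2 change -2.47 ± 0.33 (SE), adjusted p = 3.51e-06). Hsd17b7, a late enzyme of the pathway, was counted at 20.9, 12.6, 15.1 and 23.8 against 89.7, 87.5 and 82.1 CPM (log2 change -2.22 ± 0.50 (SE), adjusted p = 0.00732). Hsd17b7 did not pass without rTta animal 1 (adjusted p = 0.0574). Hsd17b7 also missed the threshold with only the rTg4510 animals of 32 and 35 weeks (adjusted p = 0.0654). Mvd, an early enzyme, was counted at 16.7, 46.3, 18.1 and 19.8 against 76.9, 71.6 and 177 CPM. Mvd did not pass without rTta animal 3 (adjusted p = 0.201). In each of these 3 genes no rTg4510 animal reached an rTta animal.

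The other old groups lay between on average. WT and P301L averaged 95.9 and 124 CPM of Insig1, 27.1 and 39.3 of Hsd17b7, and 32.7 and 56.9 of Mvd. In Insig1, Sc4mol and Hsd17b7 the rTta animals were above every other old animal. Against old WT, 0 of the 16 were called in edgeR (8 lower at an unadjusted p under 0.05) and the median was -0.51, with 15 of 16 negative (0.397% of all genes called higher and 0.155% called lower). Old P301L against old rTta also gave 0 called (3 lower at an unadjusted p under 0.05), a median of -0.57 and 16 of 16 negative (0.132% of all genes called higher and 0.0883% called lower). These comparisons share animals with the one described here. Fdft1, Sc4mol, Sc5d, Hmgcs1 and Sqle were also called, with log2 changes from -1.57 (Fdft1) to -1.12 (Sqle). The 5 tested genes that did not pass were Fdps, Dhcr7, Nsdhl, Mvk and Cyp51. The count of 11 fell to 4 without the first rTta animal, 6 without the third and 8 without the second, and was 6 with only the rTg4510 animals of 32 and 35 weeks.

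In oligodendrocytes, which also make much cholesterol, 0 of 16 genes of the list were called (0 higher and 4 lower at an unadjusted p under 0.05, and 0 in DESeq2), with a median of -0.27. Of these 16, 12 had a negative and 4 a positive log2 change. Hmgcs1, the synthase that feeds the pathway, was counted at 125, 175, 179 and 131 CPM in rTg4510 oligodendrocytes and 84.8, 234 and 158 CPM in rTta, and Sc4mol at 129.8, 145, 179 and 102 against 159.6, 199.5 and 196 CPM. The difference between the 2 classes was not tested.

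**Figure D3:**
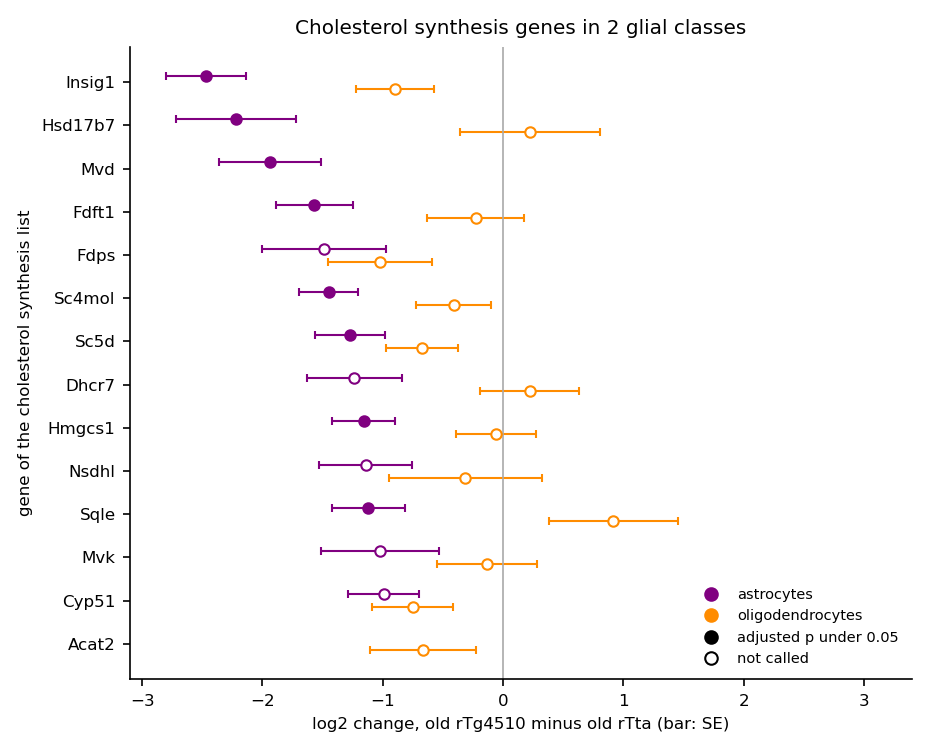
Log2 change of rTg4510 minus rTta (horizontal axis, bars are SE) for genes of the cholesterol synthesis list (vertical axis) in astrocytes and oligodendrocytes; filled points passed an adjusted p under 0.05. The astrocyte points all lie below 0, from -2.47 to -0.99. Most oligodendrocyte points also lie below 0, and the others above. Some members of the list are not shown.

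The promoters of these genes share a short motif. Sterol-regulated promoters are known to pair a sterol regulatory element with CCAAT boxes, which bind the factor NF-Y. Windows of 250 bases before the start site (RefSeq, GRCm38.p6) were found for 10 of the 16 tested genes and 6 of the 11 called ones. CCAAT, searched as CCAAT and ATTGG so that both strands count, was in 10 of 10, against 37.5% of 27025 genes with a window. TCACCCCAC, a form of the sterol regulatory element searched with its reverse complement GTGGGGTGA, was in 1 of 10, against 0.555% of genes. These letters are a description of the windows and not of binding. The 6 windows of called genes are printed 5′ to 3′ on the strand of the gene, with the motif matches in capitals, because they carry the genes that fell in rTg4510 astrocytes.
Insig1 (chr5:28071162-28071411, forward strand): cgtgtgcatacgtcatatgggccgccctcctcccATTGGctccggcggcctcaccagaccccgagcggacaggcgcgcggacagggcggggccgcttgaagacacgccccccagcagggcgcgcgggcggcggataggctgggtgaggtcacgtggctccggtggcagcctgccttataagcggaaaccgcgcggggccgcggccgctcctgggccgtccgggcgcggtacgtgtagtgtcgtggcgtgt
Hsd17b7 (chr1:169969206-169969455, reverse strand): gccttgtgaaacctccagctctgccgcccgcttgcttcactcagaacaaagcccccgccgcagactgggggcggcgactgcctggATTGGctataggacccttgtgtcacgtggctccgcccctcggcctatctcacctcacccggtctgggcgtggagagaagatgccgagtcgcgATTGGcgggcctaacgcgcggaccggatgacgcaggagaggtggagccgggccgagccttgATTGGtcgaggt
Mvd (chr8:122443423-122443672, reverse strand): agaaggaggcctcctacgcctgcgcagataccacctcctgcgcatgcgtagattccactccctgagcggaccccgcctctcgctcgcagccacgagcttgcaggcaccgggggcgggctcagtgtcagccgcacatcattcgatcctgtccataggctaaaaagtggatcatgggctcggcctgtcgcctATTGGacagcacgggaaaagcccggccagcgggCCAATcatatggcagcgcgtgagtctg
Sc4mol (chr8:64733579-64733828, reverse strand): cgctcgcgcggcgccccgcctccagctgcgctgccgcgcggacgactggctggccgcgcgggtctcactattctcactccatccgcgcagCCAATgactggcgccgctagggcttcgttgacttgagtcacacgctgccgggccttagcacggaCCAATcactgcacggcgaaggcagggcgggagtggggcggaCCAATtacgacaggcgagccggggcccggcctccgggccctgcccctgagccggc
Sc5d (chr9:42264301-42264550, reverse strand): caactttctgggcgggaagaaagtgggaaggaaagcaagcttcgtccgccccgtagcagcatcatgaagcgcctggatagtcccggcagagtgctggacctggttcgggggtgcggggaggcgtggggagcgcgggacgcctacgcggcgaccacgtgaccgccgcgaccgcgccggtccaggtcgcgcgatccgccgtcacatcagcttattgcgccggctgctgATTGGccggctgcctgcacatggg
Hmgcs1 (chr13:119690101-119690350, forward strand): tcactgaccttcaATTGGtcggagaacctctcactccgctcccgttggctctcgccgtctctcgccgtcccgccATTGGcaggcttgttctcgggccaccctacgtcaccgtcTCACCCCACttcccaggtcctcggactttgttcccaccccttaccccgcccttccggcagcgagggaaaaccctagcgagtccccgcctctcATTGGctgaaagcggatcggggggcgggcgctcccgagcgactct
Hmgcs1 holds the sterol regulatory element match and 3 CCAAT matches. Hsd17b7 and Sc4mol hold 3 CCAAT matches each, Mvd 2, and Insig1 and Sc5d 1 each.

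Oligodendrocytes of rTg4510 carried more of 3 genes that mark a disease-associated state. C4b, complement component 4, was counted at 980.3, 329, 450.4 and 287 CPM in rTg4510 and 9.97, 39 and 57.4 CPM in rTta, with WT at 27.1 ± 30.8 (SD, n = 5) and P301L at 146 ± 116 (SD, n = 3). The rTg4510 animals were above every other old animal and the log2 change was 3.81 ± 0.67 (SE) (adjusted p = 0.0043). Serpina3n was counted at 551, 325, 303 and 243 CPM against 0, 17.3 and 52.6 CPM (log2 change 3.90 ± 0.56 (SE), adjusted p = 0.000223). Its WT and P301L means of 183 and 263 CPM lay between the groups, and as in astrocytes the rTta animals were below every other old animal. Apoe was counted at 6218, 5087, 7925 and 4652 CPM against 3046, 2511 and 3243 CPM (log2 change 1.01 ± 0.22 (SE), adjusted p = 0.00876). Apoe averaged 4766 CPM in WT and 3222 in P301L. Apoe did not pass without rTta animal 1, 2 or 3 (adjusted p = 0.0656, 0.181 and 0.0515). These were 3 of 10 tested genes of the list, against 0.448% of all oligodendrocyte genes higher, with a list median of 0.87 beside 0.04 over all genes. Against old WT 1 of the 10, C4b, was called (0.128% of all genes higher), and old P301L against old rTta also gave 1, Serpina3n (0.304% higher and 0.192% lower). The 11 astrocyte markers measured summed to 1700 to 3590 CPM in rTg4510 oligodendrocytes and 1320 to 1740 in rTta. The 10 microglial markers summed to 394 to 2280 and 269 to 1130 CPM. General neuron markers, 7 in number, summed to 1140 to 7360 CPM in rTg4510, 473 to 1260 in rTta, 1480 to 4070 in WT and 281 to 2930 in P301L. In edgeR 0 of any of these sets were called. The smaller oligodendrocyte cluster held 10.8% of the class in rTg4510 and 2.4% in rTta. Apoe was positive in all 8 classes, and the part of free RNA from other cells in these calls was not tested.

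Myelin genes did not pass the test. Of 14 myelin genes 0 were called in oligodendrocytes (0 higher and 3 lower at an unadjusted p under 0.05, and 0 in DESeq2), with a median log2 change of -0.29 and 13 of 14 negative. Mbp, myelin basic protein, was counted at 7194, 8198, 7323 and 7650.0 CPM in rTg4510 and 8352, 9841 and 11484 CPM in rTta (log2 change -0.38 ± 0.21 (SE), adjusted p = 0.564). The genes with the greatest rise in oligodendrocytes beside Serpina3n and C4b were Fcho1, Eya2, Dlk2 and Rnase4, and in these it was again rTta that was lower than every other old animal. Fcho1, which nucleates clathrin-coated pits, was counted at 219, 248, 165 and 146 CPM in rTg4510, 15, 0 and 4.78 CPM in rTta, 207 ± 25.4 (SD, n = 5) in WT and 306 ± 81.3 (SD, n = 3) in P301L. Rnase4, a secreted ribonuclease, was counted at 457, 294, 151 and 136 CPM against 24.9, 17.3 and 33.5 CPM (log2 change 3.36 ± 0.48 (SE), adjusted p = 6.41e-05). Rnase4 averaged 147 CPM in WT and 178 in P301L. Dlk2 had 85 counts in rTg4510 and 3 in rTta, a ratio of 14.9 (interval 4.94 to 73.8), and Eya2 had 67 and 2, a ratio of 17.6 (interval 4.7 to 149).

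**Figure D4:**
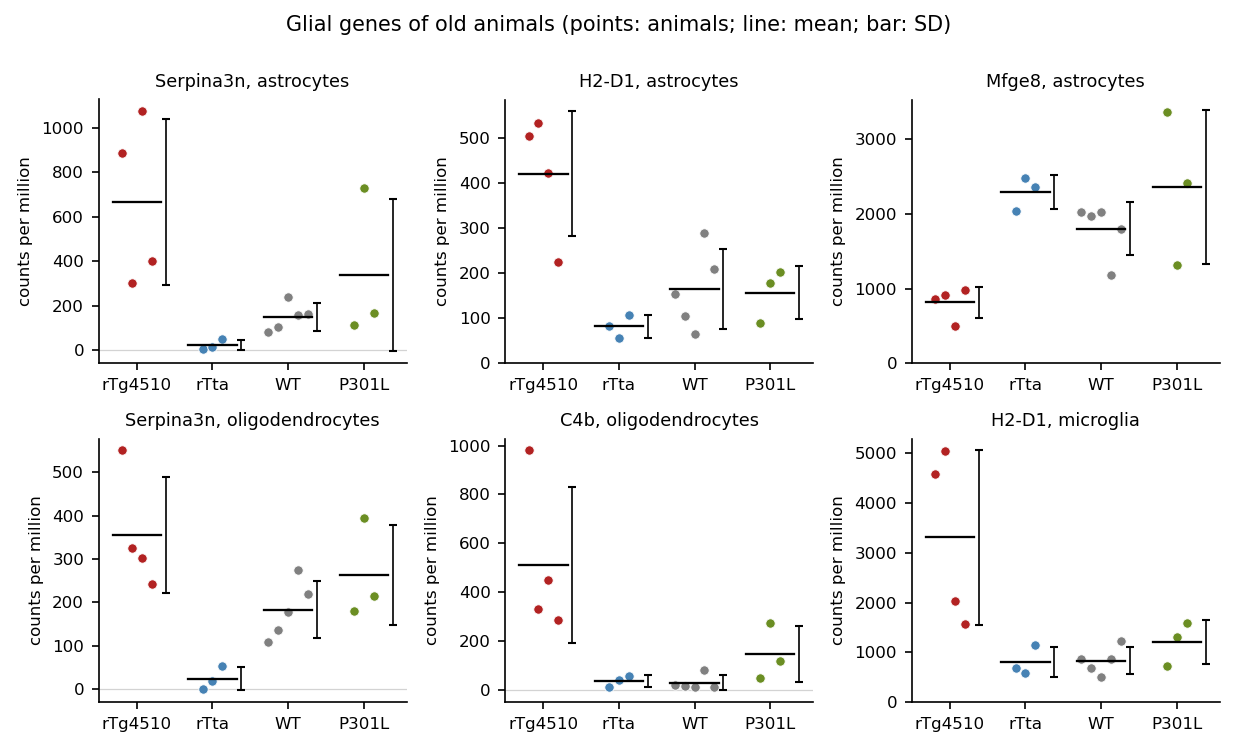
CPM (vertical axes) of Serpina3n, H2-D1 and Mfge8 in astrocytes, Serpina3n and C4b in oligodendrocytes and H2-D1 in microglia of each old animal, by genotype (horizontal axes); points are animals, lines are means and bars are SD. C4b is highest in rTg4510 and Mfge8 lowest there, Serpina3n is lowest in rTta, and H2-D1 has its highest mean in rTg4510 in both classes, with the lowest rTg4510 animal within the range of the other old animals.

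Synaptic genes of excitatory neurons did not pass the test. Of 19 presynaptic genes and 17 glutamate receptor and postsynaptic genes 0 were called in edgeR and 0 in DESeq2. Of all excitatory neuron genes 0.343% were called higher and 0.265% lower. At an unadjusted p under 0.05, 3 and 4 of the lists were lower and 0 higher, beside 910 of all 9044 genes in either direction. The list medians were -0.10 and -0.18. Snap25, of the vesicle fusion machinery, was counted at 2923, 2496, 2692 and 2787 CPM in rTg4510 and 2815, 1922 and 2101 CPM in rTta, with overlapping groups. Nrgn, neurogranin of dendritic spines, was counted at 1561 ± 293 (SD, n = 4) CPM against 2273 ± 555 (SD, n = 3) (log2 change -0.52 ± 0.24 (SE), adjusted p = 0.453). Of 14 tau kinases and phosphatases 0 were called (1 higher and 2 lower at an unadjusted p under 0.05, and 0 in DESeq2), and Camk2a, whose promoter drives the transactivator, was counted at 985 ± 127 (SD, n = 4) CPM against 1351 ± 237 (SD, n = 3). Chgb, a granin of dense core vesicles, was counted at 2037, 1992, 2098 and 1786 CPM against 1245, 1194 and 1161 CPM; the groups did not overlap, but the log2 change of 0.74 ± 0.26 (SE) was not called (adjusted p = 0.272). With only the 7 animals fitted Chgb was called at 0.74 (adjusted p = 0.00964). It belongs to the neuropeptide list, of which 0 of 10 passed (1 higher and 1 lower at an unadjusted p under 0.05, and 0 in DESeq2).

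Fos was the 1 immediate early gene called lower in excitatory neurons in the main fit. Fos, an immediate early transcription factor, was counted at 65.9, 48.6, 101 and 55 CPM in rTg4510 excitatory neurons and 154, 174 and 231 CPM in rTta. The groups did not overlap and the log2 change was -1.43 ± 0.31 (SE) (adjusted p = 0.0251). Fos did not pass without rTg4510 animal 1, 2 or 4 (adjusted p = 0.054, 0.12 and 0.0886) or rTta animal 2 or 3 (adjusted p = 0.0976 and 0.172). Fos also missed the threshold with only the rTg4510 animals of 32 and 35 weeks (adjusted p = 0.299), in the Arpp21 cluster alone (0.457), in the Pde1a cluster alone (0.795) or in the C1ql3 cluster alone (0.291). The WT mean of 70.4 ± 43.2 (SD, n = 5) CPM lay by rTg4510, and P301L averaged 126 ± 26.4 (SD, n = 3). Of 12 immediate early genes tested 1 was called, against 0.265% of all genes lower (9 lower and 0 higher at an unadjusted p under 0.05, and 1 lower in DESeq2). The count of called genes was 4 with only the 7 animals fitted and 0 in the settings where Fos did not pass. All 12 had a negative log2 change, and the median was -0.98 beside -0.003 over all genes. In the Arpp21, Pde1a and C1ql3 clusters alone the list medians were -0.93, -0.83 and -0.98. Against old WT 0 of the 12 were called in edgeR (1 lower at an unadjusted p under 0.05), with a median of -0.12 (0.111% of all genes higher and 0.0995% lower). Arc, a synaptic immediate early gene, was called in the sum of all cells, at 11.5, 7.75, 7.34 and 5.07 CPM against 25.1, 31.3 and 55.8 CPM (log2 change -2.10 ± 0.39 (SE), adjusted p = 0.0125). In that sum 6 of the 12 immediate early genes had a positive and 6 a negative log2 change, with a median of 0.07. Arc did not pass without rTg4510 animal 2 (adjusted p = 0.0592) or rTta animal 3 (adjusted p = 0.169). Arc also missed the threshold with only the 7 animals fitted (adjusted p = 0.0634) or with only the rTg4510 animals of 32 and 35 weeks (0.0571). WT averaged 26.2 ± 12 (SD, n = 5) CPM and P301L 36.4 ± 17.5 (SD, n = 3), and the rTg4510 animals were below every other old animal. In excitatory neurons alone Arc did not pass, with a log2 change of -1.75 ± 0.63 (SE) (adjusted p = 0.311).

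Other calls in excitatory neurons concerned single genes. C1ql2, a synaptic organiser of dentate granule cells, was counted at 25.5, 18.9, 38.9 and 44 CPM in rTg4510 and 44.8, 153 and 182 CPM in rTta (log2 change -1.90 ± 0.42 (SE), adjusted p = 0.0323), and the granule cell cluster held a smaller share of rTg4510 excitatory neurons, as given above. C1ql2 averaged 86.5 CPM in WT and 167 in P301L. C1ql2 did not pass without rTg4510 animal 1, 2 or 3 (adjusted p = 0.0781, 0.13 and 0.064) or rTta animal 2 or 3 (adjusted p = 0.258 and 0.198). C1ql2 also missed the threshold with only the 7 animals fitted (adjusted p = 0.118), with only the rTg4510 animals of 32 and 35 weeks (0.321), without cells of mixed markers (0.0764) or in the Pde1a cluster alone (0.842). In the cluster led by Arpp21 alone its log2 change was 0.67 and not called. C1ql2 was the member called among 12 dentate and CA markers, against 0.265% of all excitatory neuron genes lower. Stmn1, a microtubule-destabilising protein, was counted at 93.5, 36.2, 22.7 and 33 CPM against 246, 107 and 124 CPM (log2 change -1.91 ± 0.44 (SE), adjusted p = 0.0484). It was the 1 called of 12 microtubule-associated genes beside tau, against the same 0.265% of all genes lower. Stmn1 averaged 73.1 CPM in WT and 97.9 in P301L. Stmn1 did not pass without rTg4510 animal 2, 3 or 4 (adjusted p = 0.185, 0.137 and 0.138) or rTta animal 1, 2 or 3 (adjusted p = 0.257, 0.0661 and 0.0908). Stmn1 also missed the threshold without a filter on low counts (adjusted p = 0.0821), with only the 7 animals fitted (0.15), without cells of mixed markers (0.0568) or in the Arpp21 cluster alone (0.279). Lpl was counted at 136, 194, 123 and 83.5 CPM in rTg4510 neurons, 54, 12.9 and 12.4 CPM in rTta, 194 ± 50.4 (SD, n = 5) in WT and 120.5 ± 48.7 (SD, n = 3) in P301L. Lpl did not pass without rTta animal 2 (adjusted p = 0.0649). Lpl also missed the threshold with only the 7 animals fitted (adjusted p = 0.082), with only the rTg4510 animals of 32 and 35 weeks (0.0741) or in the C1ql3 cluster alone (0.157). Unlike in microglia, it was rTta that stood below every other old animal here. Gfap, an astrocyte gene, was higher in excitatory neurons, at 99.8, 67.5, 209 and 31.9 CPM against 6.59, 5.54 and 9.95 CPM (log2 change 3.82 ± 0.83 (SE), adjusted p = 0.0425). Gfap averaged 25.4 CPM in WT and 24.3 in P301L. Gfap did not pass without rTg4510 animal 1, 2 or 3 (adjusted p = 0.0664, 0.0575 and 0.0722) or rTta animal 1, 2 or 3 (adjusted p = 0.174, 0.281 and 0.172). Gfap also missed the threshold without a filter on low counts (adjusted p = 0.0643), with only the 7 animals fitted (0.159) or with only the rTg4510 animals of 32 and 35 weeks (0.0918). The summed level of 11 astrocyte markers in these cells was 1400 to 2530 CPM in rTg4510 and 1110 to 1700 in rTta, and the part of free astrocyte RNA in this call was not tested.

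Metabolic and stress lists in excitatory neurons gave few calls. Of 25 nuclear-encoded respiratory chain genes 0 were called (10 higher and 1 lower at an unadjusted p under 0.05, and 0 in DESeq2), although 22 had a positive log2 change and the median was 0.37. Of all 9044 genes tested, 910 had an unadjusted p under 0.05 in either direction. Against old WT the median was -0.02 with 9 of 25 positive, and for old P301L against old rTta, within the other table part, it was 0.33 with 22 of 25 positive (0.133% of all genes called higher and 0.0663% lower there). Cox4i1, a subunit of cytochrome oxidase, was counted at 1229.9, 1377, 1653 and 1472 CPM against 1136, 862 and 1171 CPM (log2 change 0.46 ± 0.17 (SE), adjusted p = 0.311). Of 13 heat shock chaperones and 8 integrated stress genes 0 were called in edgeR and in DESeq2, with 1 and 0 at an unadjusted p under 0.05; Hsp90ab1 was counted at 4828 ± 616 (SD, n = 4) CPM against 4366 ± 554 (SD, n = 3), and Atf4 at 121 ± 9.46 (SD, n = 4) against 130.4 ± 23.1 (SD, n = 3). Scg5, a chaperone of prohormone convertases, was higher at 1243, 1372, 1362 and 1105 CPM against 428, 284 and 408 CPM (log2 change 1.78 ± 0.28 (SE), adjusted p = 0.000623). Its WT mean of 1174 CPM lay with rTg4510 and its P301L mean of 752 between the groups.

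Interneurons gave calls beyond Mapt and Prnp. Cst3, the protease inhibitor cystatin C, was counted at 2601, 2739, 3864 and 2022 CPM against 1116, 673 and 743 CPM (log2 change 1.79 ± 0.34 (SE), adjusted p = 0.00632). Cst3 averaged 2065 CPM in WT and was at 517 in the 1 P301L animal. Cst3 did not pass without rTta animal 2 or 3 (adjusted p = 0.143 and 0.118). Cst3 also missed the threshold with only the rTg4510 animals of 32 and 35 weeks (adjusted p = 0.0673). Enpp2, the enzyme that makes lysophosphatidic acid, was counted at 286, 327, 517 and 376 CPM against 33.8, 28 and 35.4 CPM (log2 change 3.62 ± 0.74 (SE), adjusted p = 0.0389). Enpp2 averaged 268 CPM in WT and was at 103 in the 1 P301L animal. Enpp2 did not pass without rTg4510 animal 1, 2, 3 or 4 (adjusted p = 0.0581, 0.0609, 0.0733 and 0.118) or rTta animal 1, 2 or 3 (adjusted p = 0.24, 0.368 and 0.251). Enpp2 also missed the threshold with median-of-ratios size factors (adjusted p = 0.0511) or with only the rTg4510 animals of 32 and 35 weeks (0.0989). Enpp2 is on the choroid plexus marker list, and the 3 such markers measured summed to 286 to 590 CPM in rTg4510 interneurons and 33.8 to 106 in rTta. The same 3 markers summed to 3120 to 4160 CPM in rTg4510 oligodendrocytes and 3100 to 3560 in rTta. Choroid plexus-like cells were 0% in rTg4510 animals 1, 2 and 4. The part of RNA from choroid plexus-like cells or oligodendrocytes in this call was not tested. Sst, the peptide somatostatin, was counted at 2887, 1169.8, 2057 and 1114 CPM against 6068, 4977 and 1697 CPM, with overlapping groups, and 0 of 11 neuropeptide genes (1 higher and 0 lower at an unadjusted p under 0.05, and 1 in DESeq2) and 0 of 15 presynaptic genes (1 higher and 1 lower at an unadjusted p under 0.05, and 0 in DESeq2) were called.

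Vascular cells and precursors gave few calls. Of the 14 tested blood-brain barrier genes 0 were called in endothelial cells (0 higher and 0 lower at an unadjusted p under 0.05, and 0 in DESeq2); Cldn5, the tight junction claudin, was counted at 3681, 1978, 1012 and 3489 CPM against 3594, 3747 and 4516 CPM. Ctss was higher in endothelial cells, at 184, 96.8, 227 and 207 CPM against 39.9, 22.6 and 35.5 CPM (log2 change 2.40 ± 0.54 (SE), adjusted p = 0.0418), and the 10 microglial markers there summed to 392 to 1050 CPM in rTg4510 and 192 to 311 in rTta; their part in this call was not tested. Ctss averaged 60.2 CPM in WT and 61.6 in P301L. Ctss did not pass without rTg4510 animal 1, 3 or 4 (adjusted p = 0.0667, 0.158 and 0.0705) or rTta animal 1, 2 or 3 (adjusted p = 0.265, 0.455 and 0.164). Ctss also missed the threshold in DESeq2 (adjusted p = 0.0688) or without cells of mixed markers (0.0694). H2-D1 was the 1 gene called in mural cells, at 1558, 1057 and 1262 CPM against 357, 328 and 337 CPM (log2 change 1.94 ± 0.38 (SE), adjusted p = 0.00982). H2-D1 averaged 665 CPM in WT and 913 in P301L. H2-D1 did not pass without rTg4510 animal 1 (adjusted p = 0.215) or rTta animal 1, 2 or 3 (adjusted p = 0.124, 0.182 and 0.194). H2-D1 also missed the threshold without a filter on low counts (adjusted p = 0.0521). In oligodendrocyte precursors Gtl3 was counted at 753, 555 and 249 CPM against 27, 28.5 and 16.1 CPM (log2 change 4.33 ± 0.50 (SE), adjusted p = 3.24e-09), and Egr1, an immediate early gene, at 1451, 1263 and 1449 against 495, 413 and 386 CPM (log2 change 1.67 ± 0.29 (SE), adjusted p = 0.000367). In both genes WT and P301L lay with rTg4510, at 416 and 572 CPM of Gtl3 and 1190.5 and 1104 CPM of Egr1. The third rTg4510 animal was left out of the mural and precursor sums because it gave fewer than 20 such cells.

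6 genes were called in 4 or more of the classes. Rpl3, Rps18 and Rps2, proteins of the cytosolic ribosome, were lower in rTg4510 in 7 classes each. In the sum of all cells Rpl3 was counted at 7.82, 2.84, 2.17 and 5.99 CPM in rTg4510 and 254, 237 and 236 CPM in rTta, with WT at 4.49 ± 3.01 (SD, n = 5) and P301L at 27 ± 38.4 (SD, n = 3) (log2 change -5.70 ± 0.69 (SE), adjusted p = 0.000333). Rps18 was counted at 10.4, 2.84, 2.33 and 1.84 CPM against 203, 207 and 207 CPM, and Rps2 at 19.8, 9.56, 8.67 and 15.7 against 232, 277 and 275 CPM. The rTta animals were above every other old animal in all 3. In all cells these 3 were the called genes among 24 tested ribosomal protein genes, against 0.201% of all genes lower. Of the 24, 16 had a positive and 8 a negative log2 change (median 0.18). Pttg1, securin, was lower in 4 classes, at 13, 14, 8.0 and 15.7 CPM against 125, 112 and 138 CPM in all cells, with WT at 9.60. Rpl3, Rps18, Rps2 and Pttg1 have near-identical copies elsewhere in the genome and the counting rule for such reads is not given, so their counts are uncertain. H2-D1 was higher in 4 classes and positive in all 8, and Scg5 was higher in 4 and positive in all 8. Several of these calls depended on single animals or settings. In interneurons Rps18 did not pass without rTg4510 animal 3 or 4 (adjusted p = 0.0994 and 0.143) or rTta animal 1 or 3 (adjusted p = 0.0609 and 0.262). Rps18 also missed the threshold with only the rTg4510 animals of 32 and 35 weeks (adjusted p = 0.0989). In interneurons Scg5 did not pass without rTg4510 animal 3 (adjusted p = 0.0528) or rTta animal 1, 2 or 3 (adjusted p = 0.0546, 0.155 and 0.118). Scg5 also missed the threshold with only the rTg4510 animals of 32 and 35 weeks (adjusted p = 0.0971). In oligodendrocyte precursors Rpl3 did not pass without rTg4510 animal 2 (adjusted p = 0.227) or rTta animal 1, 2 or 3 (adjusted p = 0.0737, 0.0852 and 0.0671). Rpl3 also missed the threshold in DESeq2 (adjusted p = 0.994). In oligodendrocyte precursors Rps2 did not pass without rTg4510 animal 2 (adjusted p = 0.064) or rTta animal 1 (adjusted p = 0.0775). In oligodendrocyte precursors Rps18 did not pass without rTg4510 animal 2 or 4 (adjusted p = 0.112 and 0.058) or rTta animal 1 (adjusted p = 0.198). In oligodendrocyte precursors Scg5 did not pass without rTg4510 animal 2 or 4 (adjusted p = 0.253 and 0.0546) or rTta animal 1, 2 or 3 (adjusted p = 0.166, 0.289 and 0.144). In oligodendrocyte precursors H2-D1 did not pass without rTg4510 animal 1 or 2 (adjusted p = 0.0618 and 0.0663) or rTta animal 1, 2 or 3 (adjusted p = 0.172, 0.0772 and 0.0671). In endothelial cells Rpl3 missed the threshold in DESeq2 (adjusted p = 0.137). In endothelial cells Pttg1 did not pass without rTg4510 animal 2 or 3 (adjusted p = 0.084 and 0.0836) or rTta animal 1 or 3 (adjusted p = 0.0993 and 0.0901). Pttg1 also missed the threshold with only the rTg4510 animals of 32 and 35 weeks (adjusted p = 0.0972). H2-D1 in microglia and mural cells is given above, and the alternative fits of Scg5 in microglia are not reported here. In all cells, microglia and interneurons every rTg4510 and WT animal lay above every rTta and P301L animal in Scg5, a split that follows the table parts.

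In genomic position (mm10, GENCODE M21), Rpl3 lies on chromosome 15 at 80077791-80091868, Pttg1 on chromosome 11 at 43420250-43426251 and Scg5 on chromosome 2 at 113776362-113829121. On the same build Rps2 at 24718116-24721929, Rps18 at 33951999-33956001, C4b at 34728380-34743882 and H2-D1 at 35262730-35267499 lie on chromosome 17. All are annotated as protein-coding genes.

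**Figure D5:**
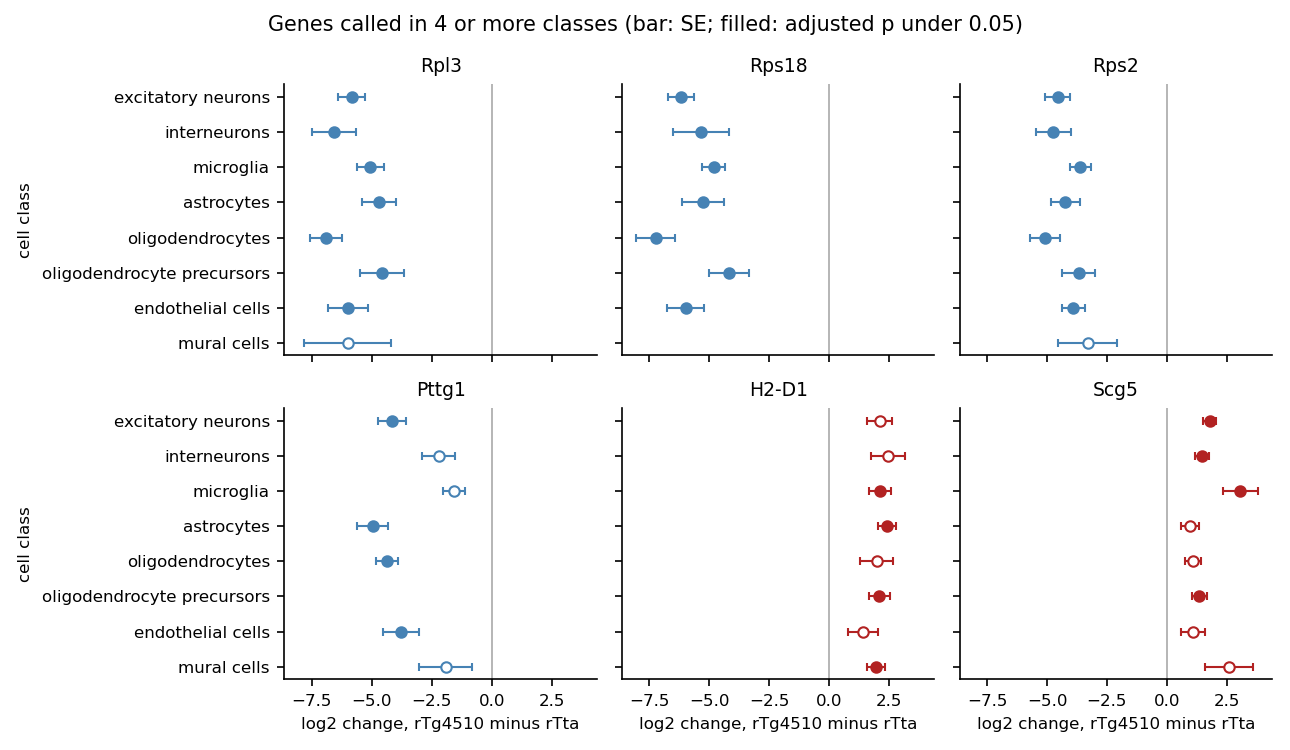
Log2 change of rTg4510 minus rTta (horizontal axes, bars are SE) by cell class (vertical axes) for the 6 genes called in 4 or more classes; filled points passed an adjusted p under 0.05. Rpl3, Rps18, Rps2 and Pttg1 lie below 0 in every class where they were tested, and H2-D1 and Scg5 above 0.

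Several other leading genes of the sum of all cells also set rTta apart. Hddc3, a hydrolase of the stringent response nucleotide, was counted at 62, 63.8, 89.7 and 52.1 CPM in rTg4510 and 8.36, 12.1 and 13.8 CPM in rTta (log2 change 2.72 ± 0.33 (SE), adjusted p = 0.000333), with WT at 68.8 and P301L at 53. Wdfy1, an endosomal adaptor, was counted at 57.3, 83.2, 82 and 54.4 against 21.9, 22.3 and 19.3 CPM, with WT and P301L at 69 and 60.5. Hopx, a homeodomain protein of astrocytes and progenitors, was counted at 322, 284, 320.5 and 204 against 75.8, 64.5 and 95.1 CPM, with 282 and 187. Hopx did not pass without rTta animal 1, 2 or 3 (adjusted p = 0.112, 0.139 and 0.0526). Hopx also missed the threshold with only the rTg4510 animals of 32 and 35 weeks (adjusted p = 0.0571). In these genes the other 3 old genotypes lay together above rTta. Gusb, the lysosomal enzyme beta-glucuronidase, was the member of the lysosomal list called in all cells, at 52.6, 54.5, 39.5 and 49.8 CPM against 21.9, 21.1 and 21.4 CPM (log2 change 1.31 ± 0.25 (SE), adjusted p = 0.0175), with WT at 21.2 and P301L at 37. It was 1 of 27 tested, against 0.145% of all genes higher. Gusb did not pass without rTg4510 animal 2 (adjusted p = 0.0678) or rTta animal 1, 2 or 3 (adjusted p = 0.129, 0.14 and 0.107). Gusb also missed the threshold with only the rTg4510 animals of 32 and 35 weeks (adjusted p = 0.0988). In astrocytes Abhd1 had 91 counts in rTg4510 and 0 in rTta, at least 10.3-fold higher against a floor of 3 counts over the group, and Mamdc2 had 67 and 0, at least 7.57-fold higher. Both were also counted in WT and P301L astrocytes, Abhd1 at 101 and 126 CPM and Mamdc2 at 45.6 and 44.8 CPM. Fewer cells of a type and less RNA per cell cannot be told apart in these sums of all cells.

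Shares of cells could not be called, because 4 against 3 animals give an exact two-sided permutation p of at least 0.0571. Excitatory neurons were 8.87%, 19.0%, 23% and 23.1% of the cells in the 4 rTg4510 animals and 16.4%, 15.9% and 14.5% in the 3 rTta animals. The rTg4510 animal of 38 weeks was below the rTta range, which the other 3 exceeded (exact permutation p = 0.514). Microglia were 20.9%, 23.9%, 7.0% and 15.8% against 11.6%, 12.5% and 9.70% (exact permutation p = 0.286). Endothelial cells were 5.48% ± 1.77 (SD, n = 4) against 8.83% ± 1.47 (SD, n = 3), and mural cells 1.77% ± 1.18 (SD, n = 4) against 4.00% ± 0.60 (SD, n = 3). Both were lower in every rTg4510 animal than in every rTta animal (exact permutation p = 0.0571 each, the smallest possible). Endothelial cells averaged 6.26% in WT and 13.1% in P301L, and mural cells 1.88% and 5.00%. In both classes the means of rTg4510 and WT were below those of rTta and P301L, an order that follows the table parts. Astrocytes were 10.3% against 9.59% and oligodendrocytes 11.6% against 11.3% on average. An unnamed cluster with a median of 515 counts per cell, led by Shq1 and Kif5a, held 8.68% of rTg4510 and 20.3% of rTta cells on average. The shares rest on barcodes above 300 counts, and depth differed between the groups as given above.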

How the data were processed

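Drop-seq libraries were made from hippocampus, with beads that carry a cell barcode and a molecular identifier, per the labels' protocols. The submitters' processing notes name bcl2fastq 2.18.0.12, STAR 2.2 and mm10. The authors deposited a single table of whole-number counts per gene and barcode; how reads at copied, overlapping or antisense genes were counted is not given in the sources used here. Barcodes with at least 300 counts were clustered with scanpy 1.11.5 (2000 variable genes, 40 components, 15 neighbours, Leiden resolution 1) and clusters were named from marker lists. No doublet caller was run; 632 named cells of the 7 animals held more marker counts of another class and were left out in an alternative. Counts were summed per animal and class (at least 20 cells), scaled to CPM for display, and tested in edgeR 4.0.16 (TMM, filterByExpr, robust quasi-likelihood) in 1 fit over all 6 groups of 22 animals, without covariates, with Benjamini-Hochberg adjustment over all genes tested. On simulated counts for the real genes, 83% of changes of log2 2 were called in the sum of all cells, 81% in microglia, 61% in mural cells and 53% in interneurons. Shares were compared by an exact two-sided permutation test over animals (35 regroupings), and their adjusted p-values over 16 classes and clusters were 0.3048 or more. Named genes were the checks of the transgenes, the 10 greatest rises and falls in all cells and 6 in each class among called genes of at least 50 CPM whose groups do not overlap, and up to 4 members of each list (called ones, or the 2 of highest level where none was called). Some genes that this rule names are not reported here. The members and lists were chosen with earlier results of these data known. Alternatives were DESeq2 1.42.0, other size factors, no filter, the 7 animals alone, each animal left out, age-matched animals, 500 counts per cell and, chosen after seeing the data, single clusters and named cells without choroid plexus-like cells.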

Additional observations from a re-analysis of the deposited data

Results flagged for a closer look

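In 15 of 202 groups of 4 rTg4510 values tested, 1 animal lay far from the other 3; chance alone flags about 1 group in 20. The third rTg4510 animal had 34.0% choroid plexus-like cells, where the other 3 had 0. The same animal had the highest Cox4i1 (3540 CPM) and Cox6c (1760 CPM) in all cells, the lowest Cox6c in excitatory neurons (827 CPM), and the highest Hspa8 in astrocytes (84.6 CPM) and Rps18 in oligodendrocytes (3.44 CPM). The first rTg4510 animal had 24.0% of its cells in the unnamed cluster of low counts, and the highest Serpina3n (252 CPM) and Rps18 (10.4 CPM) in all cells and Rpl3 in interneurons (15 CPM). The second rTg4510 animal had the highest Cd74 in microglia (1110 CPM), Mvd in astrocytes (46.3 CPM) and Rps18 in interneurons (5.54 CPM). The fourth rTg4510 animal had the highest Ppp3ca in excitatory neurons (3080 CPM) and Acp1 in oligodendrocytes (4.87 CPM). Their causes were not tested.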

How the results depend on the processing

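Of the 120 called pairs of named gene and class, 119 kept their direction in every alternative, 56 were called in every alternative and 12 in fewer than 50% of them. The exception in direction was C1ql2, at 0.665 in the Arpp21 excitatory cluster alone. Scaling by median-of-ratios size factors moved the median change of a class by at most 0.049. No paired analysis was possible because replicate numbers follow accession order and pair no animals. With only the 7 animals fitted, calls were 27 in all cells, 203 in astrocytes, 156 in microglia, 113 in excitatory neurons, 18 in precursors, 13 in endothelial and 2 in mural cells. Without a filter on low counts they were 42 in endothelial cells, 21 in interneurons and 14 in precursors. With only the rTg4510 animals of 32 and 35 weeks they were 70 in astrocytes, 24 in excitatory neurons and 3 in interneurons. All cells gave 111 calls in DESeq2 and 67 without choroid plexus-like cells. Excitatory neurons gave 33 without cells of mixed markers, and 32 and 25 in the Pde1a and C1ql3 clusters alone; microglia gave 54 in the P2ry12 cluster alone. A minimum of 500 counts per cell gave 2 calls in mural cells and reversed 3 differences in share, to -0.45 points in astrocytes, -0.99 in excitatory neurons and -2.29 in oligodendrocytes.

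With each animal left out in turn, calls ranged from 16 to 43 in all cells, 28 to 121 in astrocytes, 36 to 105 in microglia, 19 to 46 in excitatory neurons, 32 to 60 in oligodendrocytes, 4 to 10 in interneurons, 2 to 7 in precursors, 3 to 8 in endothelial and 0 to 1 in mural cells. The count moved by over 1.5 times in all cells without rTg4510 animal 2 (26) or rTta 1, 2 or 3 (20, 19 and 16), in astrocytes without rTg4510 3 (40) or rTta 1, 2 or 3 (28, 35 and 61), and in microglia without rTta 1, 2 or 3 (46, 36 and 46). It did so in excitatory neurons without rTg4510 2, 3 or 4 (31, 30 and 36) or rTta 2 or 3 (19 and 25), in oligodendrocytes without rTta 2 or 3 (32 and 33), in interneurons without rTg4510 1, 3 or 4 (7, 6 and 6) or rTta 2 or 3 (4 and 4), in precursors without rTg4510 2 (3) or rTta 1, 2 or 3 (2, 4 and 4), in endothelial cells without rTg4510 3 or rTta 1 (3 each), and in mural cells without rTg4510 1 or any rTta animal (0 each). Differences in share ranged from -0.01 to 1.74 points in astrocytes, -0.32 to 1.2 in oligodendrocytes and -0.08 to 11.26 in choroid plexus-like cells; the other 7 kept their direction. On simulated counts 26% of changes of log2 1 were called in all cells and 6% in interneurons. Changes of that size were thus often not called with these animal numbers, spread and depth. The simulation gave each gene the trended spread around 1 pooled mean. Single outlying animals and the 2 table parts were not simulated, so recovery in the real counts may be lower.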

Other observations

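The third old P301L animal lay between rTta and the other old animals in all cells in 5 genes, chosen after their values were seen, that were higher in rTta than in every other old animal. Rpl3 was counted at 71.4 CPM, against 3.13 and 6.64 CPM in the other P301L animals. Rps18 was at 102.9 CPM against 11.7 and 7.31 CPM, and Rps2 at 130.4 CPM against 14.1 and 18.6 CPM. Pttg1, at 54.9 CPM against 13.3 and 12.6, and Acp1, at 27.4 CPM against 4.69 and 3.99, had the same order.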
